A study of Mus musculus with 10 samples.

Results

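Atf4 is a transcription factor that switches on genes for making and importing amino acids, and 10 genes of this program are described here across sorted cells of the mouse small intestinal crypt: Atf4, Ddit3, Trib3, Asns, Chac1, Phgdh, Psat1, Shmt2, Mthfd2 and Pycr1. They are 10 of the 34800 gene names counted in the libraries once ribosomal RNA genes are set aside. The group was chosen from measured values as well as from function, because Pycr1 was picked on its near absence from the libraries labelled P3 and the others were named to see whether they follow it. Pycr1 in P3 is therefore given as a description without a test, and the other 9 genes are counted wherever P3 enters a comparison.

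The cells came from C57BL6/J mice carrying OSCAR, a fluorescent reporter of CDK9 activity knocked into the Rosa26 locus behind a removable stop, which Vasa-Cre deletes in the germ line so that the EF1a promoter drives OSCAR in every tissue. Live EpCAM-positive crypt cells were sorted into 5 populations, 2 libraries each, by the ratio of the reporter's fluorescent proteins (OSCAR low, medium or high) and by its total brightness (EF1a low or high). P1 was sorted as OSCAR low and EF1a low, P2 as OSCAR high and EF1a low, P3 as OSCAR low and EF1a high, P4 as OSCAR medium and EF1a low, and P5 as OSCAR medium and EF1a high. All 5 carry the reporter, and no library comes from mice without it. The libraries hold between 3857612 and 6485823 counts on genes.

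The integrated stress response lowers general translation by phosphorylating eIF2alpha while it raises translation of the Atf4 mRNA, so Atf4 protein can change when its mRNA does not. Atf4 binds, with partner factors, to C/EBP-ATF response elements near genes that supply amino acids, transfer RNA charging and glutathione, and its targets Ddit3 and Trib3 act in stress signalling and in feedback on Atf4 itself. In the crypt, Paneth and goblet cells make large amounts of secreted protein, while stem and progenitor cells divide quickly.

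A search of RefSeq promoter windows of GRCm38.p6 (300 bases, from 250 before to 50 after each start) for TGATGNAA, the core of that response element, on both strands found it in 4 of the 10 genes, or 4 of their 11 windows (36.4%), against 1304 of 32851 windows in all, or 3.97%. The 30 bases around each match are shown because all 4 genes are called between populations below. The capitals mark the match, each sequence reads 5′ to 3′ on the gene's strand, and each was located in NCBIM37 (the mm9 genome) by an exact match.
Asns: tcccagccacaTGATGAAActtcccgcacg
Chac1: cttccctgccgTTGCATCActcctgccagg
Pycr1: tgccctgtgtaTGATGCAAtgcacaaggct
Trib3: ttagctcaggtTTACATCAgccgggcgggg
The Asns window is chr6:7643214-7643243 on the minus strand, and its match begins 23 bases before the RefSeq start. The Chac1 window is chr2:119176774-119176803 on the plus strand, with the reverse form of the motif beginning 193 bases before the start. The Pycr1 window is chr11:120505147-120505176 on the minus strand, with the match beginning 103 bases before the start. The Trib3 window is chr2:152169764-152169793 on the minus strand, and here the reverse form begins at base 15 counted from the RefSeq start. Positions differ between annotations: in the NCBIM37 models used for counting, which begin at 152169768 for Trib3 and 7643254 for Asns, the Trib3 match lies before the gene and the Asns match inside it. A match is a description of the sequence and not evidence of binding, and the absence of these letters from the windows of the other 6 genes says nothing about the factor.

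Several features of the libraries bear on what follows. The share of counts on mitochondrially encoded genes was 58.6% and 35.5% for P3 and ran from 1.02% to 4.99% elsewhere, and the first P3 library has the smallest scaled total, so that 3 counts, taken as the floor of detection for counting error only, correspond there to 1.59 normalised CPM (reads of a gene per 1e+06 counts of the TMM-scaled library total), against 0.298 to 0.914 in the other libraries. The labels of P2 and P3 conflict with the study's own description, which places the markers of secretory cells in P3, whereas these libraries hold them under the label P2. The names of the deposited files carry other population numbers than the sample titles, and the titles were used. No library was renamed, and P2 and P3 below always mean the deposited labels. The gates named for each comparison, and the EF1a and interaction contrasts, hold only if those labels are right. The study also reports, from protein staining of tissue sections, that the cells with the highest OSCAR ratio lack the proliferation marker Ki67. The libraries instead measure mRNA of sorted gates, so the measure and the cells differ. In the libraries used here, 14 of 15 proliferation genes were called lower under the label P2 than under P4. Against P3, 14 were also called lower under P2 (median log2 fold change -3.43), and 0 were called between P3 and P4. Mki67 read 32.3 and 27.7 CPM for P2 and 285 and 554 for P3. Among its populations the study found the lowest RNA content per cell in P2, which these libraries do not measure. The study counts differentiated cells among non-proliferating cells too. Its principal component analysis set P1 and P3 apart from the other populations. Here edgeR called 0 genes between P3 and P4, 0 between P3 and P5, and 1962 between P2 and P4. Which labels are right was not tested. Levels are CPM after TMM scaling. On library totals instead, the median log2 fold change of all genes is -1.07 for P2 against P4, -0.75 for P1 against P4 and -0.98 for P3 against P4, and differences near those sizes depend on the scaling. The 7 Paneth markers described below took 38.6% and 28.2% of the counts in P2, and 0.0757% and 0.13% in P4. Their part in the effect of the scaling was not tested. A population can hold more RNA of a gene because more of its cells express it or because each cell holds more, and bulk libraries cannot tell these apart. Nothing in the labels says that replicates are separate animals, so p-values measure the spread between libraries. The study describes them as biological replicates.

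The quasi-likelihood test of edgeR was applied in a single model of all 10 libraries, with Benjamini-Hochberg adjustment over 13706 genes, and a gene is called at an adjusted p under 0.01. All 10 genes passed the filter on low counts. The SE given with a fold change is the absolute log2 fold change divided by the square root of the F statistic of its test. It is an approximation that was not fitted separately, and for changes near 0 it need not match the p-value. In the joint test for any difference among the 5 populations, 8 of the 9 genes other than Pycr1 were called, where 36.3% of all genes tested were. The exception was Phgdh, with an edgeR adjusted p of 0.0456. Leaving out either P1 library lost Shmt2 and Trib3, leaving out P2 replicate 1 or either P4 or P5 library lost Shmt2, leaving out P2 replicate 2 lost Chac1, and leaving out either P3 library added Phgdh. On library totals Atf4 and Shmt2 were lost, which left 6, and with DESeq2 size factors Shmt2 was lost.

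**Figure D1:**
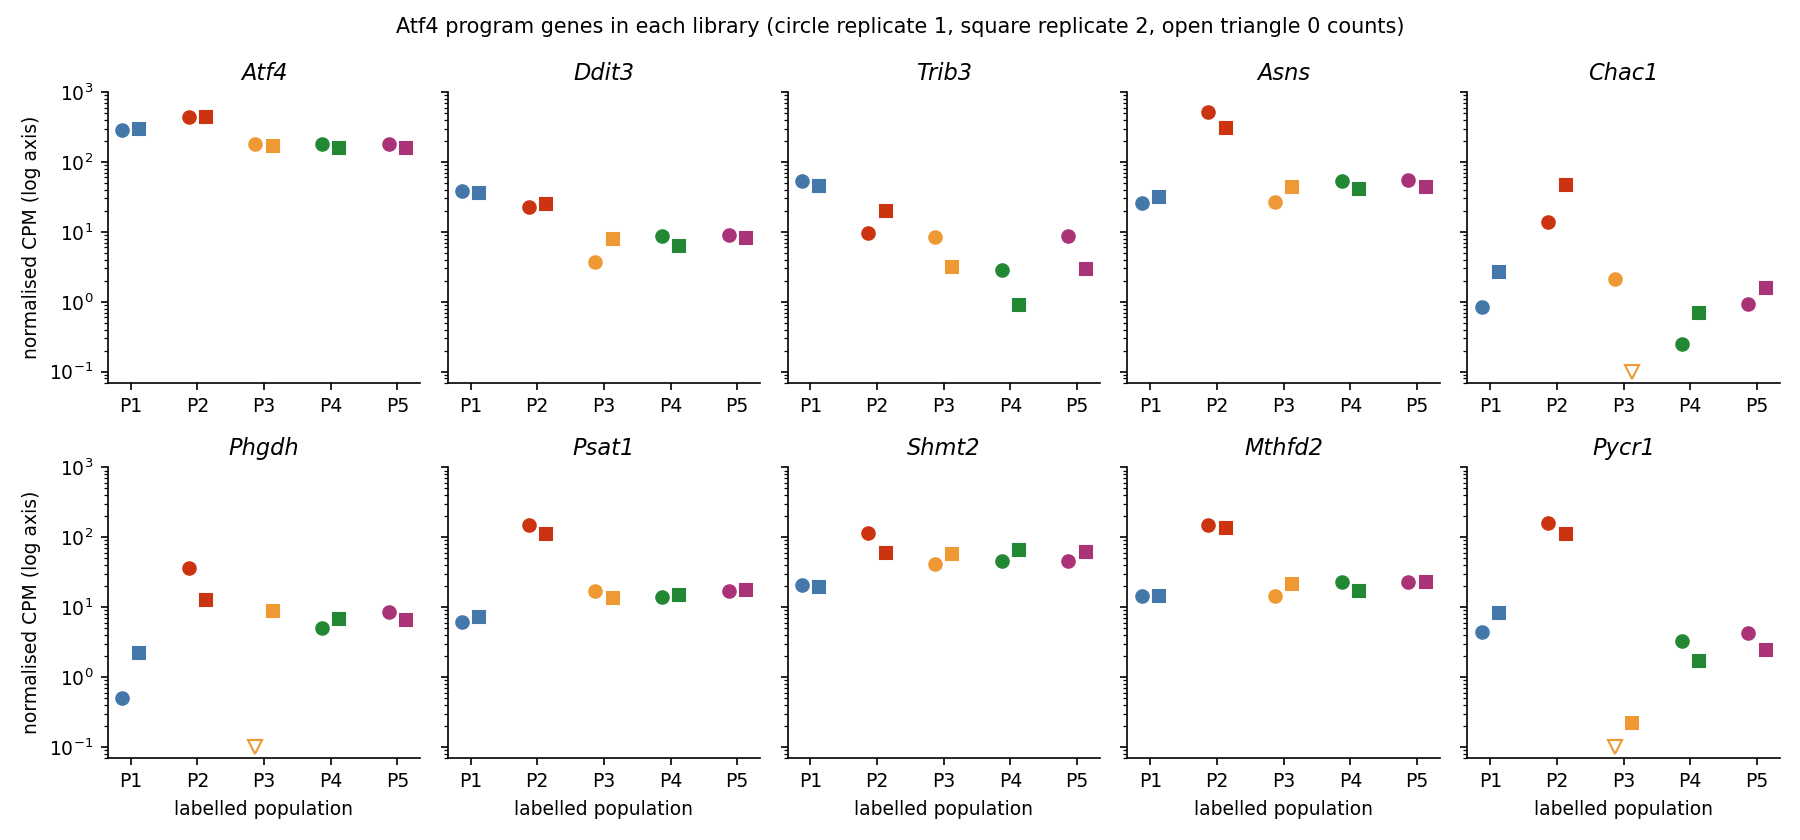
Level of each gene in each library, in TMM-normalised CPM on a log axis, with libraries grouped by labelled population; circles are replicate 1, squares replicate 2, and open triangles at the bottom mark 0 counts. Atf4, Asns, Chac1, Phgdh, Psat1, Mthfd2 and Pycr1 lie highest in both P2 libraries, Ddit3 and Trib3 in both P1 libraries, and Pycr1 lies lowest in P3.

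Atf4 mRNA read 284 and 296 CPM for P1, 435 and 443 for P2, 183 and 168 for P3, 181 and 156 for P4, and 183 and 160 for P5. P2 and P1 each stood above the other populations without overlap, and P3, P5 and P4 followed with overlapping values. Between P2 and P4 the log2 fold change was 1.38 ± 0.21 (SE, 2 libraries each, edgeR adjusted p = 0.00184). On library totals it was 0.24 with an adjusted p of 0.544, so the call depends on the scaling. P1 exceeded P4 by 0.78 ± 0.20, which was not called (edgeR adjusted p = 0.0144).

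Ddit3, which encodes CHOP, a stress-induced transcription factor linked to cell death, and Trib3, a pseudokinase that restrains Atf4 activity, shared a different order, with P1 first. Ddit3 read 38.3 and 35.5 CPM for P1, 22.6 and 24.8 for P2, 3.72 and 7.99 for P3, 8.60 and 6.25 for P4, and 8.94 and 8.05 for P5. Trib3 read 53.4 and 45.0 for P1, 9.75 and 20.1 for P2, 8.49 and 3.11 for P3, 2.83 and 0.893 for P4, and 8.71 and 2.97 for P5. Both genes were highest in both P1 libraries, next in both P2 libraries, and low in the other populations. Exons of Ddit3 share 81 bases (4.73% of their length) with genes on the opposite strand, among them Mars, and strand was not used in counting, so reads from that stretch cannot be assigned.

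Asns, which makes asparagine from aspartate, was highest in P2. It read 26.3 and 31.4 CPM for P1, 515 and 310 for P2, 27.1 and 44.2 for P3, 53.4 and 40.4 for P4, and 54.8 and 44.4 for P5. The lower P2 library was above every library of the other populations, and P5, P4, P3 and P1 followed in that order with each overlapping the next. Chac1, which breaks down glutathione, was also highest in P2 but at low counts elsewhere. It read 0.847 and 2.68 for P1, 14.0 and 46.8 for P2, 2.12 and 0 for P3, 0.246 and 0.695 for P4, and 0.917 and 1.59 for P5, and outside P2 these values rest on 0 to 16 counts a library.

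The serine and one-carbon enzymes Phgdh, Psat1, Shmt2 and Mthfd2 feed carbon from glycolysis into serine and then into mitochondrial folate metabolism. Psat1, the transaminase of serine synthesis, read 6.10 and 7.19 CPM for P1, 148 and 112 for P2, 17.0 and 13.5 for P3, 13.8 and 15.1 for P4, and 17.2 and 17.7 for P5. Mthfd2, the mitochondrial folate dehydrogenase and cyclohydrolase, read 14.2 and 14.6 for P1, 152 and 135 for P2, 14.3 and 21.3 for P3, 23.1 and 17.3 for P4, and 22.7 and 22.9 for P5. Both were highest in P2 and lowest on average in P1, with the P1 libraries of Psat1 below those of every other population and those of Mthfd2 reaching the lower P3 library. Shmt2, the mitochondrial enzyme that splits serine into glycine and a one-carbon unit, read 21.0 and 19.6 for P1, 114 and 58.7 for P2, 41.4 and 56.8 for P3, 46.4 and 65.7 for P4, and 45.5 and 61.0 for P5, so P2 overlapped P4 and the population apart from the rest was P1, at the low end.

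Phgdh, which opens serine synthesis, read 0.508 and 2.17 CPM for P1, 36.9 and 12.5 for P2, 0 and 8.88 for P3, 5.04 and 6.85 for P4, and 8.48 and 6.57 for P5. P2 was above the other populations, and the P3 libraries took 0 and 40 counts where the mean level of P4 would give 11.2 and 26.8. These values are uncertain, because 15 places elsewhere in NCBIM37 match at least 50% of its transcript at an identity of 90% or more, the closest at 98.8% over 1828 bases, and reads that map to several places were not counted. No copy at that identity was found for the other 9 genes, though Shmt2 has one at 89.9% over 1272 bases and Psat1 one at 89.1% over 1694 bases. Exons of Shmt2 share 14 bases with Ndufa4l2 on the opposite strand, and Pycr1 shares 90 bases, 3.09% of its transcript, with many places.

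Pycr1, the mitochondrial enzyme that completes proline synthesis, read 4.40 and 8.20 CPM for P1, 160 and 113 for P2, 0 and 0.222 for P3, 3.32 and 1.69 for P4, and 4.24 and 2.44 for P5. The P3 values are 0 and 1 counts, whereas P2 took 524 and 507. Outside P2 the gene was scarce in general, with 17 to 49 counts a library in P1, P4 and P5, so that the mean level of P4 would give 4.71 and 11.3 counts in libraries the size of those of P3. Taken as pooled counts over scaled totals, P3 held 0.0648 of the P4 level and 0.0474 of the P5 level. These are the values that chose the gene, and they are given without a test.

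Against P4 under TMM scaling, the pooled counts of 7 of the other 9 genes did not follow Pycr1 down in P3. For Phgdh and Chac1 the P3 libraries differ too much to tell. The same pooled ratio of P3 to P4 was 0.847 for Asns, 0.916 for Shmt2, 0.922 for Ddit3, 0.969 for Mthfd2, 1 for Psat1, 1.03 for Atf4, 1.04 for Phgdh, 1.27 for Chac1 and 2.67 for Trib3. The 95% counting interval ran from 0.285 to 4.54 for Chac1, which took 4 counts in P3, and its lower bound was 0.638 or more for the rest. That of Asns, 0.732 to 0.976, lay below 1. The pooled ratio hides differences between the P3 libraries for Ddit3, Trib3 and Asns. In replicates 1 and 2, Ddit3 took 7 and 36 counts where the P4 level would give 14 and 33.4. Trib3 took 16 and 14 against 3.5 and 8.37, and Asns 51 and 199 against 88.4 and 211. Against P5 the ratio was 1.01 for Atf4 and below 1 for the other 8, from 0.495 for Chac1 to 0.976 for Shmt2, and the interval of Asns was 0.686 to 0.913. Against P1, where Pycr1 had a ratio of 0.0248, Trib3 was low as well at 0.0956 (counting interval 0.0639 to 0.138), Ddit3 at 0.183 (0.13 to 0.25) and Atf4 at 0.596 (0.556 to 0.638). Phgdh had 0 counts in P3 replicate 1, where the P4 level would give 11.2, and 40 in replicate 2. Its fitted log2 fold change against P4 was 0.55 without replicate 1 and -8.28 without replicate 2, and the latter depends on the prior count since the library left is at 0. Chac1 had 4 counts in replicate 1 and 0 in replicate 2, where the P4 level would give 0.886 and 2.12, and its fitted value ran from -4.78 without replicate 1, again beside a library at 0, to 2.07 without replicate 2. On library totals the log2 fold change of P3 against P4 was below 0 for 8 of the 9, from -1.34 for Asns to -0.58 for Chac1, beside a median of -0.98 for all genes, and it was 0.36 for Trib3. None of the 9 was called between P3 and P4 by edgeR, where 0% of all genes tested were called, and none had an unadjusted p under 0.05, although 2079 of the 13706 genes did. DESeq2 called none of them either, and 121 of all genes. P3 against P5 gave the same counts among the 9 genes, with 0% of all genes called, 1587 under an unadjusted p of 0.05 and 40 called by DESeq2. Their median log2 fold change was -0.14 against P4 and -0.32 against P5, beside 0.08 and 0.03 for all genes. With an SE of 0.96 for Phgdh and 1.52 for Chac1 against P4, these comparisons could not resolve changes of a few fold in those 2 genes.

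**Figure D2:**
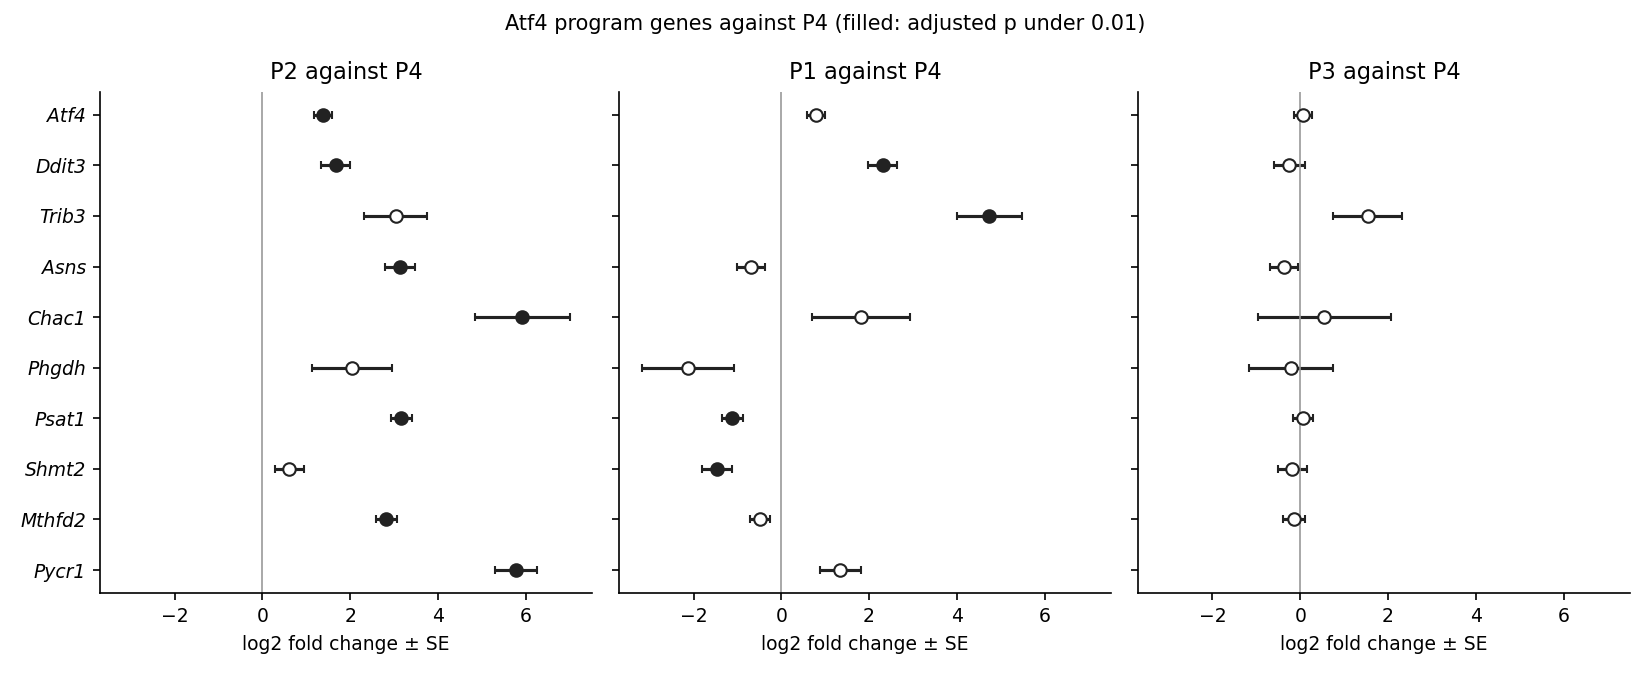
Log2 fold change of each gene against P4 with its SE (2 libraries each), for P2, P1 and P3; filled points have an edgeR adjusted p under 0.01, and Pycr1 is left out of the P3 panel because its level there chose it. In P2, 7 of 10 genes are called and all 10 estimates are above 0 (that of Shmt2 turns below 0 on library totals); in P1, Ddit3 and Trib3 are called above 0 and Psat1 and Shmt2 below; in P3, none of 9 is called.

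P2 against P4 contrasts high with medium OSCAR at low EF1a, and the test called 7 of 10 genes, all higher in P2 (Atf4, Ddit3, Asns, Chac1, Psat1, Mthfd2 and Pycr1), where it called 14.3% of all genes, 8% higher and 6.31% lower. The median log2 fold change of the 10 was 2.93, beside 0.05 for all genes. The estimates were 5.92 ± 1.08 for Chac1, 5.78 ± 0.48 for Pycr1, 3.17 ± 0.23 for Psat1, 3.14 ± 0.34 for Asns and 2.83 ± 0.24 for Mthfd2, with edgeR adjusted p between 0.000328 and 0.0041. Ddit3 gave 1.67 ± 0.33 (edgeR adjusted p = 0.00593). Trib3 (3.04 ± 0.72), Phgdh (2.04 ± 0.91) and Shmt2 (0.62 ± 0.33) were not called, with edgeR adjusted p of 0.0129, 0.126 and 0.195.

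Asns, Psat1 and Pycr1 were called between P2 and P4 under all 18 alternative settings, Mthfd2 under 17, Chac1 under 15, Atf4 under 13 and Ddit3 under 9. On library totals 4 of the 10 were called, without Atf4, Ddit3 and Mthfd2, where 296 of 13706 genes were called higher and 2863 lower, and leaving out P2 replicate 2, P4 replicate 1 or P4 replicate 2 also left 4, without Atf4, Chac1 and Ddit3, where 588, 393 and 320 of all genes were called. Leaving out P2 replicate 1 lost Atf4 and Ddit3, leaving out either P1 or either P5 library lost Ddit3, and leaving out either P3 library added Trib3. A fit without the P3 libraries, added after the data were seen, called 8, the same 7 and Trib3, and so did a replicate block.

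P2 against P1 contrasts high with low OSCAR at low EF1a. Here 6 of 10 genes were called, all higher in P2 (Asns, Chac1, Psat1, Shmt2, Mthfd2 and Pycr1), where 29.1% of all genes were, 13.9% higher and 15.2% lower. Pycr1 gave 4.43 ± 0.45, Psat1 4.29 ± 0.25, Chac1 4.10 ± 0.97, Asns 3.83 ± 0.35, Mthfd2 3.31 ± 0.25 and Shmt2 2.08 ± 0.35 (log2). Trib3 gave -1.71 ± 0.63, Ddit3 -0.64 ± 0.32 and Atf4 0.60 ± 0.20, none of them called (edgeR adjusted p of 0.0497, 0.128 and 0.0378), and Phgdh gave 4.17 ± 1.07 with an edgeR adjusted p of 0.0114. Asns, Psat1, Mthfd2 and Pycr1 were called under all 18 alternatives, Shmt2 under 15 and Chac1 under 9. Without either P1 library, Chac1 and Shmt2 were lost and 4 genes were called, as on library totals. Leaving out any library of P2, P4 or P5 lost Chac1, and leaving out either P3 library, or adding a replicate block, added Phgdh.

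P1 against P4 contrasts low with medium OSCAR at low EF1a, with calls in both directions. Of the 10 genes, 2 were higher in P1, Trib3 by 4.74 ± 0.73 and Ddit3 by 2.31 ± 0.33, and 2 were lower, Shmt2 by -1.47 ± 0.34 and Psat1 by -1.12 ± 0.24 (log2), where 23.4% of all genes were called, 14.0% higher and 9.44% lower. The edgeR adjusted p were 0.00172, 0.00137, 0.00854 and 0.00579. The other estimates were 1.82 ± 1.12 for Chac1, 1.35 ± 0.46 for Pycr1, 0.78 ± 0.20 for Atf4, -0.49 ± 0.24 for Mthfd2, -0.70 ± 0.32 for Asns and -2.13 ± 1.05 for Phgdh. The median of the 10 was 0.15, beside -0.06 for all genes. Without P4 replicate 1, 0 of 14458 genes tested were called by edgeR (5612 had an unadjusted p under 0.05), and without P4 replicate 2, 0 of 14498 (5301), so every call of P1 against P4, those of the lists included, rests on having both P4 libraries. DESeq2 was not run without these libraries. On library totals Ddit3 was lost and the split became 1 higher and 2 lower, and with DESeq2 size factors Shmt2 was lost. Leaving out either P1 or either P5 library left 2, Ddit3 and Trib3. Over the 18 alternatives Trib3 was called under 16, Ddit3 under 15, Psat1 under 12 and Shmt2 under 11.

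P3 against P1 contrasts high with low EF1a at low OSCAR. Of the 9 genes other than Pycr1, Trib3 (-3.21 ± 0.72) and Ddit3 (-2.56 ± 0.36) were lower in P3 and Psat1 (1.18 ± 0.25) higher, with edgeR adjusted p of 0.00956, 0.00178 and 0.00785, where 15.6% of all genes were called, 8.01% higher and 7.54% lower. Ddit3 was called under 15 of 17 alternatives, Trib3 under 9 and Psat1 under 6. The calls of Ddit3, Trib3 and Psat1 were lost without either P1 library, and those of Trib3 and Psat1 without either P3 or either P4 library. Calls among all genes fell in each of these fits too, least without P3 replicate 1. Over the 17 alternatives the log2 fold change ran from -3.28 to -2.19 for Ddit3, -3.96 to -2.50 for Trib3 and 0.78 to 1.38 for Psat1. Psat1 was lost without either P5 library and on library totals. Without P2 replicate 1, Ddit3 and Shmt2 were called, and without P2 replicate 2, Ddit3, Psat1 and Shmt2. At medium OSCAR the same gate change, P5 against P4, gave no call among the 10 genes or among all genes (0%), with 1 of the 10 (Trib3) and 350 of all genes under an unadjusted p of 0.05. DESeq2 called none of the 10 there, and 30 of all genes.

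The difference between those EF1a effects was tested directly as an interaction. None of the 9 genes was called by edgeR, where 0.810% of all genes were, and 5 had an unadjusted p under 0.05, as did 4655 of all 13706. Those 111 genes fell to 0 when any 1 library was left out. Trib3 gave -4.88 ± 1.01 and Ddit3 -2.76 ± 0.48 (log2, edgeR adjusted p of 0.0159 and 0.0115), and DESeq2 called both among 2053 genes, as did edgeR with a replicate block among 593.

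P2 against P3 sets the opposite gates against each other. Of the 9 genes, 6 were called, all higher in P2 (Atf4, Ddit3, Asns, Chac1, Psat1 and Mthfd2), where 21.0% of all genes were, 10.4% higher and 10.6% lower. Chac1 gave 5.38 ± 1.19, Asns 3.51 ± 0.35, Psat1 3.11 ± 0.24, Mthfd2 2.97 ± 0.25, Ddit3 1.92 ± 0.36 and Atf4 1.32 ± 0.21 (log2). Asns, Psat1 and Mthfd2 were called under all 17 alternatives, Atf4 under 16, Ddit3 under 14 and Chac1 under 10. Without either P2 library Chac1 and Ddit3 were lost, and Chac1 was lost without P3 replicate 2, either P4 library or either P5 library. On library totals Atf4 and Ddit3 were lost. These comparisons share libraries with those above, and their values are not independent of them.

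Per kilobase of exon, which allows a rough comparison of levels between genes, Atf4 was the most abundant of the 10 in each population. Its mean was 254 CPM per kb in P2 and 97.9 in P4. The exon length used exceeds the longest transcript for some genes, with 4254 against 2617 bases for Psat1 and 3935 against 2914 for Pycr1. For Ddit3 the lengths are 1713 and 890, so the order of genes with close values depends on the length used. In P2, Asns came next at 151 CPM per kb, followed by Mthfd2 at 52.6, Shmt2 at 37.9, Pycr1 at 34.7, Psat1 at 30.6, Chac1 at 18.6, Ddit3 at 13.8, Phgdh at 9.93 and Trib3 at 7.02. In P1, Trib3 at 23.1 and Ddit3 at 21.5 came after Atf4. In P4, Shmt2 at 24.6 and Asns at 17.2 followed Atf4, and Pycr1 stood at 0.636.

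Across the 10 libraries the members did not move as a single block. The highest correlation of log2 CPM between a pair of them was 0.993, for Asns with Mthfd2, and the lowest was -0.633, for Trib3 with Shmt2. Atf4 mRNA correlated at 0.873 with Pycr1 and at 0.0404 with Shmt2. Outside the 10, genes most like Pycr1 included Sirpa (r = 0.992), Fgfrl1 (0.991), Appl2 (0.988) and Kcnma1 (0.985), and those most like the mean standardised profile of the 10 were Sync (0.99), Gm12503 (0.989), P2rx4 (0.988), Atp2b2 (0.986) and Rnase4 (0.986). Sirpa read 46.6 and 40.4 CPM in P2 and 0 and 0.222 in P3. Sync read 21.3 and 15.6 CPM in P2 and at most 0.836 elsewhere, Gm12503 14.0 and 9.37 against at most 0.508, and Atp2b2 4.88 and 6.69 against at most 0.458. Outside P2 these genes lay near the floor. A gene present almost only in P2 must resemble a profile that is highest there, so their rank carries no further information. These correlations describe 10 libraries in 5 pairs and carry no p.

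The other genes of the pathway were taken from lists of amino acid, translation and stress genes, to be read beside the share of all genes called: 8% higher and 6.31% lower in P2 against P4, and 14.0% and 9.44% in P1 against P4. On library totals 296 of 13706 genes were higher and 2863 lower in P2 against P4, and 500 and 1623 in P1 against P4. A count of 1 gene in a list does not stand apart from those shares. Leaving out a library of P2 or P4 took the genes called in P2 against P4 from 1962 to 622 (P2 replicate 1), 588 (P2 replicate 2), 393 (P4 replicate 1) and 320 (P4 replicate 2). Upstream of Atf4 stand eIF2alpha itself, its kinases and their regulators, its exchange factor and its phosphatase subunits. Of these 14 genes, 3 were called higher and 0 lower in P2 against P4, with a median log2 fold change of 0.28 (0.05 for all genes). The 3 were Ppp1r15a, a stress-induced phosphatase subunit (2.89 ± 0.62), the endoplasmic reticulum stress kinase Eif2ak3 (2.20 ± 0.26) and Ppp1r15b (1.11 ± 0.22), whose sign reverses on library totals. Eif2ak3 read 88.4 and 120 CPM in P2 and 21.5 and 23.7 in P4. Between P1 and P4, 2 of the 14 were higher and 4 lower (0 and 4 on library totals), with a median of -0.27 (-0.06 for all genes). They were led by Eif2b3 (-2.47 ± 0.48), the heme-regulated kinase Eif2ak1 (1.77 ± 0.26), the amino acid sensing kinase Eif2ak4 (-1.66 ± 0.28) and its activator Gcn1l1 (-1.38 ± 0.17). Eif2ak1 read 207 and 185 in P1 and 57.2 and 57.8 in P4.

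Of 12 other stress regulators, 10 could be tested, and 3 were higher and 0 lower in P2 than in P4, with a median of 1.51. Nupr1, a stress-induced chromatin protein, read 872 and 520 CPM in P2 and 3.32 and 5.46 in P4 (7.29 ± 0.88). Vldlr gave 4.06 ± 0.63 and the translation repressor Eif4ebp1 gave 2.56 ± 0.37. On library totals this list had 2 higher and 1 lower. In P1 against P4 the median was 0.23, with 1 higher and 1 lower (0 and 1 on library totals). Cebpg, which encodes a dimer partner of Atf4, was higher (1.66 ± 0.20, with 225 and 224 CPM in P1 and 72.7 and 69.9 in P4), and Ddit4, an inhibitor of mTORC1 signalling, was lower (-1.77 ± 0.35).

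Of 15 other serine, glycine and one-carbon enzymes, 14 could be tested, and 2 were higher and 5 lower in P2 than in P4 (1 and 7 on library totals), with a median of -0.54. Aldh1l2, a mitochondrial folate enzyme (96.6 and 45.3 CPM in P2, 1.47 and 0.794 in P4, 5.96 ± 0.72), was higher, while the cytosolic Shmt1 (-3.44 ± 0.39) and the thymidylate synthase Tyms (-2.21 ± 0.35) were lower. For P1 against P4, 3 were higher and 3 lower (0 and 5 on library totals), with a median of -0.47, among them Aldh1l1 (2.23 ± 0.45), Mthfd1 (-2.05 ± 0.23) and Shmt1 (-1.94 ± 0.35).

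Among 15 proline, glutamate and transaminase genes, of which 14 could be tested, 4 were higher and 3 lower in P2 than in P4 (1 and 5 on library totals), with a median of -0.31. The transaminases Gpt2 (4.13 ± 0.45) and Bcat2 (2.21 ± 0.31) were higher, and Oat, which links ornithine with proline and glutamate, was lower (-2.71 ± 0.32). In P1 against P4, 3 were higher and 2 lower (2 and 2 on library totals), with a median of -0.14, among them the proline-degrading enzyme Aldh4a1 (7.21 ± 1.18), Got1 (2.70 ± 0.53) and the glutamine synthetase Glul (-1.43 ± 0.22).

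Amino acid transport and transfer RNA charging come next. Of 14 amino acid transporters, 6 were higher and 0 lower in P2 than in P4, with a median of 1.18, and on library totals 4 were higher and 1, Slc38a1, lower. The neutral amino acid carrier Slc1a4 read 269 and 211 CPM in P2 and 4.91 and 5.85 in P4 (5.47 ± 0.35), followed by Slc43a1 (4.94 ± 0.86), Slc36a4 (4.19 ± 0.42) and the glycine carrier Slc6a9 (3.13 ± 0.56). Slc43a1 read 24.7 and 22.3 CPM in P2, 1.35 and 0.198 in P4, at most 1.67 in P1 and P5, and 0 in both P3 libraries. It lay near the floor outside P2 and entered the test through its level in P2, so its call is given as a description. Between P1 and P4, 0 were higher and 6 lower, with a median of -0.96, led by Slc7a6 (-2.25 ± 0.47), Slc7a5 (-2.22 ± 0.47), Slc7a1 (-2.08 ± 0.25) and Slc1a5 (-1.89 ± 0.28). Of 20 cytosolic aminoacyl-tRNA synthetases, 7 were higher and 0 lower in P2 than in P4, with a median of 0.52, but on library totals 0 were higher and 4 lower, where 2863 of all 13706 genes were lower. The largest were Cars (2.04 ± 0.29), Wars (1.99 ± 0.26), Mars (1.66 ± 0.21) and Aars (1.55 ± 0.19). For P1 against P4, 0 were higher and 5 lower, with a median of -0.45, led by Vars (-2.07 ± 0.24), Iars (-1.60 ± 0.29), Farsb (-1.33 ± 0.27) and Farsa (-1.05 ± 0.22).

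Of 7 cysteine and glutathione enzymes, 0 were higher and 1 lower in P2 than in P4, with a median of 0.27. That gene, Gss (-1.25 ± 0.26), falls outside the rule for naming genes and was chosen after its values were seen. The gene of this list with the highest mean over the 10 libraries was Gclm, a glutathione synthesis subunit. It read 49.99 and 90.6 CPM in P2, 50.2 and 46.9 in P4, and 565 and 443 in P1. Cth read 43.3 and 27.0 in P2 and 92.6 and 90.2 in P4, above Gclm there. In P1 against P4, 3 were higher and 1 lower (1 and 1 on library totals), with a median of 1.22: Gclm (3.37 ± 0.40), Chac2, a relative of Chac1 (1.96 ± 0.42), Gss (1.30 ± 0.26), and Cbs (-3.22 ± 0.61).

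Of 12 endoplasmic reticulum chaperones and stress genes, 7 were higher and 0 lower in P2 than in P4, with a median of 1.60, and on library totals none was called. They were led by Herpud1 (2.49 ± 0.48), Dnajb9 (2.29 ± 0.28), Edem1 (2.27 ± 0.22) and the secretory cell regulator Xbp1 (2.01 ± 0.28), which read 592 and 629 CPM in P2 and 165 and 139 in P4. Between P1 and P4, 0 were higher and 5 lower, with a median of -0.90, led by Pdia4 (-1.79 ± 0.22), Hyou1 (-1.73 ± 0.28), Creld2 (-1.58 ± 0.26) and Hspa5 (-1.57 ± 0.29). Of 7 mitochondrial chaperones and proteases, 0 were higher and 3 lower in P2 than in P4, with a median of -0.89: Hspd1 (-2.36 ± 0.22), Hspe1 (-1.76 ± 0.31) and Hspa9 (-1.60 ± 0.25). Hspd1 (-1.64 ± 0.22) and Hspe1 (-1.44 ± 0.30) were also the 2 called lower in P1, where the median was -0.64.

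**Figure D3:**
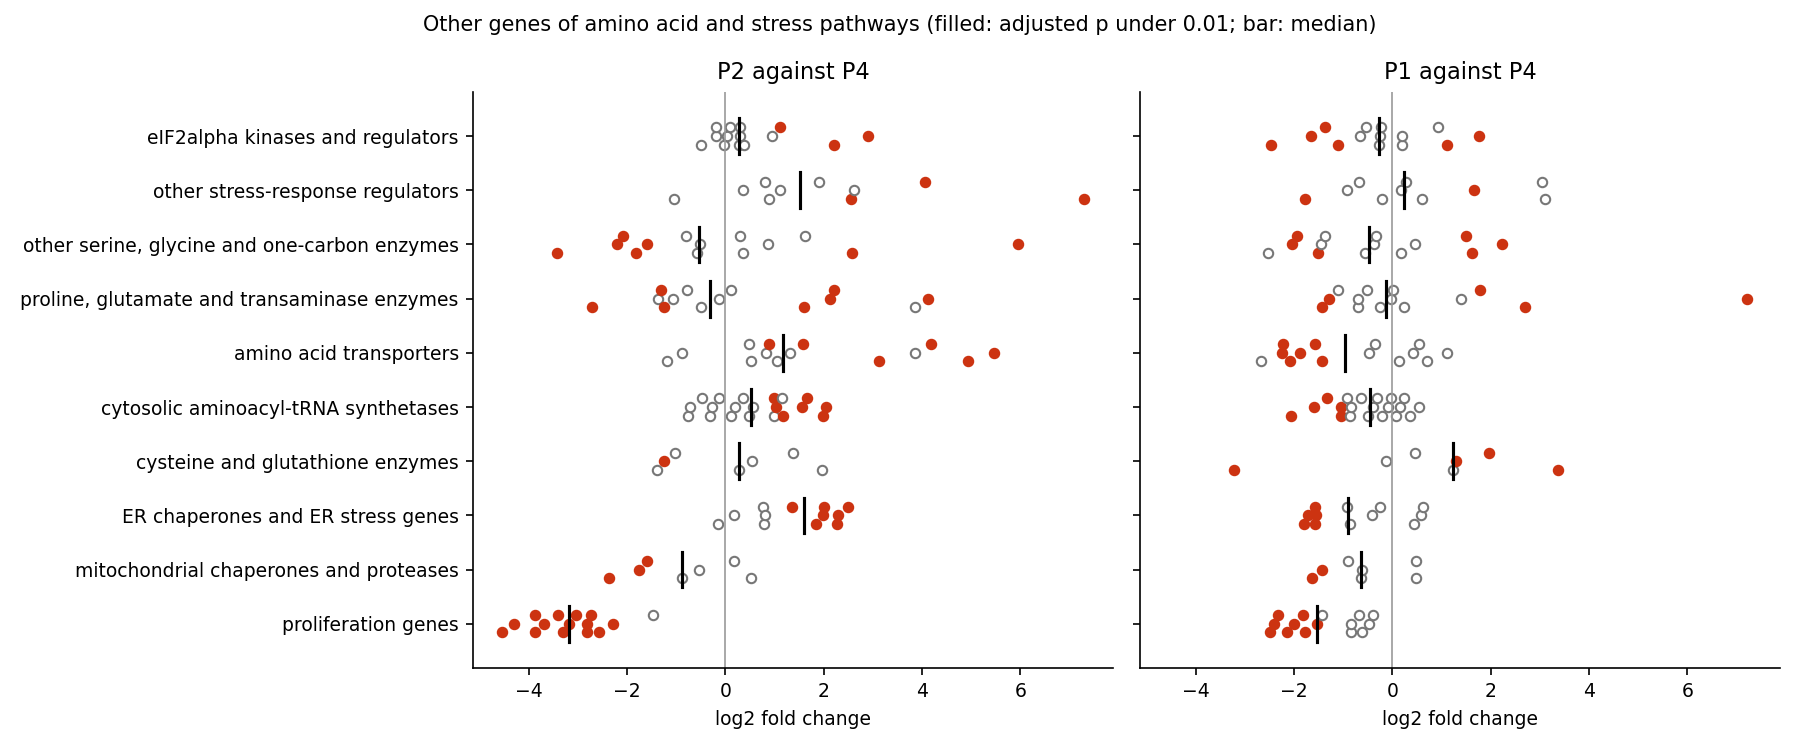
Log2 fold change of the genes of 10 pathway lists, P2 against P4 and P1 against P4; each point is a gene, filled where its edgeR adjusted p is under 0.01, and the bar is the list's median. In P2 the transporter, synthetase and endoplasmic reticulum lists hold 6, 7 and 7 genes called higher (4, 0 and 0 on library totals), while the proliferation list holds 14 of 15 called lower.

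Cell type markers differed along with these results. All 7 Paneth markers were called higher in P2 than in P4 and all 7 were called higher in P1 than in P4, and each was detected in every library. Their summed level was 19618 and 62922 CPM for P1, 562692 and 399239 for P2, 3401 and 1803 for P3, 502 and 839 for P4, and 10743 and 2192 for P5, with Lyz1 the most abundant (here and below by the mean over the 10 libraries). Since CPM use scaled totals, these sums are not shares of the counts, which were 38.6% and 28.2% in P2. Of the 7 goblet markers 6 were higher in P2 than in P4 and 0 in P1, with a sum of 56062 and 125368 in P2, 10458 and 8307 in P4, and 1982 and 4237 in P3, and Fcgbp the most abundant. Of the enteroendocrine markers, of which Gip had the highest mean over the 10 libraries, 4 of 7 were higher in P2, with sums of 4732 and 11402 there and 569 and 322 in P4. Of the tuft markers, of which Trpm5 had the highest mean, 2 of 6 were higher in P2, with sums of 457 and 828 there and 64.9 and 56.3 in P4, and in P3 they were 187 and 18.2, with the defining Pou2f3 at 0 in both P3 libraries. On library totals the goblet count was 2, the enteroendocrine count 2 and the tuft count 0, none of them lower. Their part in the level of the Atf4 program in P2 was not tested.

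The enterocyte, stem cell and lymphocyte lists had calls in P1 or P2 against P4, the stroma and blood list had none there and 1 gene lower in P2 than in P3, while P3 against P4 and P3 against P5, which had no call among all genes by edgeR, had none in any marker list. The test called 3 of 10 enterocyte markers higher in P1 than P4 and 1 lower in P2, with sums of 47403 and 40043 CPM in P1, where Fabp2 held the most, against 10988 and 4097 in P4. Of 7 stem cell markers, 4 were lower in P1 than in P4 and 1 was lower in P2, with sums of 708 and 972 for P1, 1721 and 1106 for P2, 561 and 3056 for P3, and 4931 and 7228 for P4, and Olfm4 the most abundant. Of 7 lymphocyte markers, 4 of the 6 tested were higher in P1, with sums of 868 and 258 there, 154 and 2.66 in P3, 0.860 and 2.28 in P4 and at most 22.5 elsewhere. Gzma had the highest mean over the 10 libraries, though not the highest level in P2, P5 or P3 replicate 2, and the defining Cd3e was at 0 in both P2 libraries, P3 replicate 2, both P4 libraries and P5 replicate 1. Stroma and blood markers summed to 152 and 78.2 in P3, led by Hbb-b1, and to at most 22.9 elsewhere, with Col3a1 and Pdgfra at 0 in both P3 libraries. Of 15 proliferation genes, 14 were lower in P2 than in P4 (median -3.19) and 8 were lower in P1 (median -1.53), led in P2 by Ccnb1 (-4.54 ± 0.85), Mcm5 (-4.31 ± 0.61), Birc5 (-3.88 ± 0.45) and Ccna2 (-3.87 ± 0.42) and in P1 by Mcm4 (-2.49 ± 0.47), Mcm3 (-2.40 ± 0.42), Mcm5 (-2.33 ± 0.52) and Mcm6 (-2.15 ± 0.48). The part of these markers, and of the mitochondrial share, in the levels given for P1 and P3 was not tested.

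**Figure D4:**
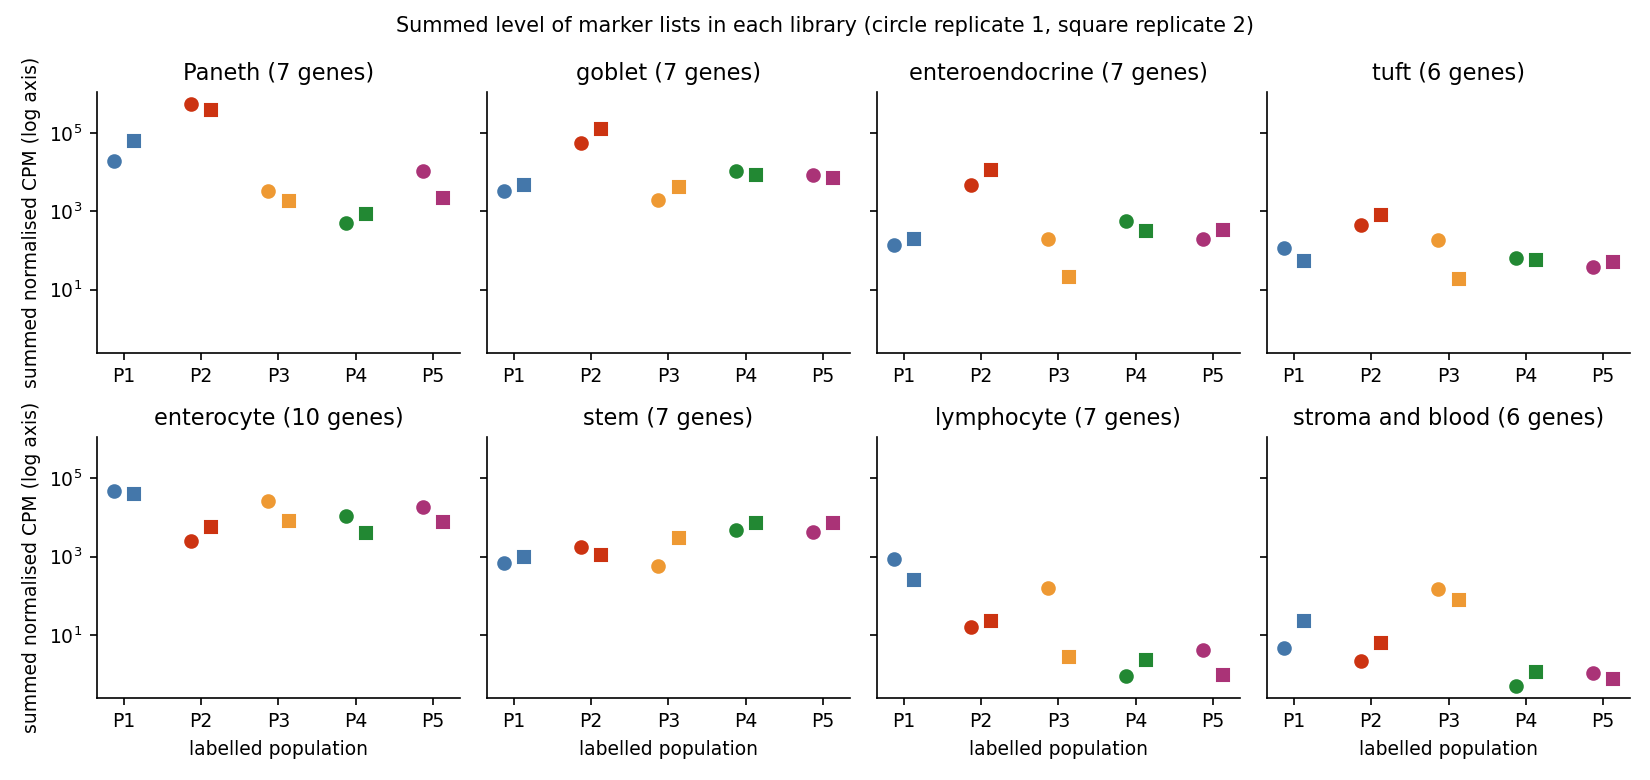
Summed normalised CPM of the 8 marker lists in each library, on a log axis; circles are replicate 1 and squares replicate 2. The Paneth, goblet, enteroendocrine and tuft sums are highest in the libraries labelled P2, the enterocyte and lymphocyte sums in P1, and the stroma and blood sum in P3.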

How the data were processed

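RNA from sorted crypt cells was sequenced after poly-A selection, in 10 libraries of 5 populations. The authors mapped the reads to mm9 with TopHat 2.1.0 after FastQC 0.11.5, and deposited raw counts per gene from HTSeq-count 0.11.2, made without strand and without reads that map to several places. Those made up 41.7% and 33.1% of the reads in P3 and 29.3% and 28.2% in P2. The unassigned tallies stayed out of all totals and took 18.7% to 44.3% of reads, and a row without a gene name took 11 to 33 counts. Of 35006 row names, 206 ribosomal RNA names were removed, as in the study.

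Counts were tested in R 4.3.3 with edgeR 4.0.16 (quasi-likelihood test, TMM, filterByExpr, Benjamini-Hochberg over all genes, 5 residual degrees of freedom), after tests on simulated data, and with DESeq2 1.42.0 as an alternative. Other alternatives were DESeq2 size factors, library totals, no filter, mitochondrial genes left out, a threshold of 0.05, a replicate block, and each library left out. Correlations used log2 CPM with a prior count of 2. Copies were searched with blastn 2.17.0. Counting intervals came from scipy 1.17.1 under Python 3.11.15, tables from pandas 2.3.3 with numpy 2.4.6, and plots from matplotlib 3.10.9.

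The members and lists were chosen with earlier results of these data known. All 10 members are named. In each of the 10 pathway lists, up to 4 called genes with the largest absolute log2 fold change are named or, where fewer than 2 are called, the 2 with the highest mean CPM. Some genes that this rule names, and some of the most similar genes, are left out of the text and stay in the counts. Intervals and floors cover counting error only.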

Additional observations from a re-analysis of the deposited data

How the results depend on the processing

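Beside the counts of genes called in the report, a threshold of 0.05 gave 4652 genes for P3 against P1, 3 for P3 against P4, 1 for P3 against P5, 5114 for P2 against P3, 6462 for P2 against P1, 3987 for P2 against P4, 5777 for P1 against P4, 2370 for the interaction and 7929 for the joint test. DESeq2 gave 3582 for P3 against P1, 121 for P3 against P4, 40 for P3 against P5, 3192 for P2 against P4, 30 for P5 against P4 and 2053 for the interaction. Without a filter on low counts the numbers were 4005 for P3 against P1, 539 for P3 against P4, 302 for P3 against P5, 4439 for P2 against P3, 3500 for P2 against P4, 5026 for P1 against P4, 194 for P5 against P4, 2298 for the interaction and 7931 for the joint test.

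Library totals gave 1164 genes for P3 against P1, 15 for P3 against P4, 1688 for P2 against P3, 3159 for P2 against P4, 2123 for P1 against P4 and 58 for the interaction. The higher and lower genes there were 103 and 1061 for P3 against P1 (1098 and 1034 with TMM), 839 and 2260 for P2 against P1 (1905 and 2084), 296 and 2863 for P2 against P4 (1097 and 865), 500 and 1623 for P1 against P4 (1920 and 1294), and 8 and 50 for the interaction (45 and 66). Without mitochondrial genes they were 1548 and 1753 for P1 against P4 and 208 and 167 for the interaction, 375 in all. DESeq2 size factors gave 362 for the interaction. A replicate block gave 4 genes for P3 against P4, 4 for P3 against P5, 1 for P5 against P4 and 593 for the interaction. With the block P2 against P4 gained Trib3, P2 against P1 gained Phgdh, and the interaction gained Ddit3 and Trib3. The labels do not say whether replicate numbers pair the libraries, and they were not taken as pairs. Deviations from the population mean correlated between libraries of the same number from -0.0598 to 0.554 over 10 pairs of populations, with a median of 0.255 and the highest value for P4 with P5, and the cause was not tested.

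Among the members, P3 against P1 gave 5 at a threshold of 0.05 and 5 without a filter, and P2 against P4 gave 4 on library totals. The interaction gave 2 at a threshold of 0.05, 2 by DESeq2, 3 without a filter and 2 with a replicate block. The cause was not tested.

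Leaving out 1 library at a time gave from 0 to 2126 genes for P3 against P1, 0 to 17 for P3 against P4, 0 to 1 for P3 against P5, 1348 to 2605 for P2 against P3, 1576 to 5046 for P2 against P1, 320 to 2763 for P2 against P4, 0 to 4412 for P1 against P4, 0 for P5 against P4, 0 for the interaction and 2657 to 6391 for the joint test. The members called ran from 0 to 3 for P3 against P1, 4 to 6 for P2 against P3, 4 to 7 for P2 against P1, 4 to 8 for P2 against P4, 0 to 4 for P1 against P4 and 6 to 9 for the joint test. The lone library of a population is then assumed to vary like the other populations. Of 260 called member fold changes so recomputed, 191 kept their direction and their call and 69 lost the call, and of 199 under the other alternatives 188 kept both and 11 lost the call. None changed direction.

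With 2 libraries a population and 5 residual degrees of freedom, calls shift when 1 library is left out, and a missing call does not show that levels are equal. The counts of Pycr1 and Chac1 in P3 are too few to measure moderate differences, and those of Phgdh differ too much between the P3 libraries. The smaller depth outside mitochondrial genes in P3 adds to these limits.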
